A study of Mus musculus with 11 samples.

Results

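The 10 genes described here belong to the BCL2 family, the proteins that set whether a mitochondrion releases the factors that start cell death. They were taken by name from the 22196 mouse genes of the transcript tables, and all 10 were present. The samples were inguinal mammary glands taken 16 days after delivery from mice fed normal chow, sequenced as 6 knockout and 5 wild-type libraries. Both groups carried Tsc1 alleles flanked by recombination sites (Tsc1-fl/fl). The knockout mice also carried one copy of a Cre transgene driven by the adiponectin gene (Adipoq-Cre-Tg/+), which is active in fat cells, and the wild-type mice had none (Adipoq-Cre-+/+). Cre therefore acts in a cell type that makes up only part of a lactating gland, while the RNA came from the whole gland. Estimated reads per library ranged from 25817975 to 37894237.

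BCL2 proteins fall into 3 kinds. The pro-survival members (BCL2, BCL-XL from Bcl2l1, and MCL1) hold the effectors BAX and BAK in check, and the BH3-only members (BAD, BID, BIM from Bcl2l11, BMF, and PUMA from Bbc3) relieve that hold when a cell is stressed or loses its signals. BAX and BAK then open the outer mitochondrial membrane and cytochrome c escapes. In the mammary gland the family is best known from involution, the regression after weaning in which most milk-secreting cells die, and from the clearing of cells inside growing ducts, where BIM and BMF take part. MCL1 and BCL-XL are known as survival factors of the milk-secreting epithelium. Much of the regulation of these proteins is by phosphorylation, cleavage and turnover, which RNA does not show.

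All 10 members share a short helix, the BH3 domain, through which they bind one another. The part of each coding sequence that spells the core of this helix is shown because it is what makes the members one family. The capitals mark the 18 bases of 6 codons that read leucine, 3 residues of any kind, then glycine, alanine or serine, then aspartate. The flanking codons are in lower case, and each sequence is from the transcript with the most reads, read 5′ to 3′ on the coding strand (GENCODE M21, GRCm38).
Bcl2: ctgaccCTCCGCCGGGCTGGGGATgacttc
Bcl2l1: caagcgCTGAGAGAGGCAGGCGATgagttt
Mcl1: gagaccCTGCGGCGCGTGGGCGACggcgtg
Bax: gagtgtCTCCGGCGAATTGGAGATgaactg
Bak1: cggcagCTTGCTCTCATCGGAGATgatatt
Bad: cgtgagCTCCGAAGGATGAGCGATgagttt
Bid: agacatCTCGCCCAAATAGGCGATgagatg
Bcl2l11: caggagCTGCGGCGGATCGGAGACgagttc
Bmf: agaaagCTTCAGTGTATTGCAGACcagttc
Bbc3: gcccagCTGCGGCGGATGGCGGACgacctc
The first 3 sequences are from the pro-survival members, the next 2 from the effectors and the last 5 from the BH3-only members. Each main coding sequence held this pattern exactly 1 time in frame. The pattern is short, and 33.8% of the 22073 genes with a listed coding sequence held it at least 1 time, so that a match alone does not mark a BH3 domain. All 10 stretches lay within a single exon.

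The pro-survival stretches are at chr1:106712578-106712607 (minus strand, exon 1 of 2 in Bcl2-201), chr2:152829700-152829729 (minus strand, exon 2 of 3 in Bcl2l1-201) and chr3:95659430-95659459 (plus strand, exon 1 of 3 in Mcl1-201). Those of the effectors are at chr7:45466000-45466029 (minus strand, exon 3 of 6 in Bax-201) and chr17:27022534-27022563 (minus strand, exon 4 of 6 in Bak1-202). Among the BH3-only genes they are at chr19:6950786-6950815 (plus strand, exon 3 of 4 in Bad-201) and chr6:120897292-120897321 (minus strand, exon 4 of 7 in Bid-204). The last 3 are at chr2:128147144-128147173 (plus strand, exon 3 of 4 in Bcl2l11-205), chr2:118545103-118545132 (minus strand, exon 4 of 5 in Bmf-201) and chr7:16313767-16313796 (plus strand, exon 3 of 4 in Bbc3-201). No 31-base word of 9 members occurred on either strand in another listed gene. Of the words of Bax, 24.5% also occurred in Gm45808, a gene overlapping it on the same strand, to which the quantifier gave between 0 and 3 reads per library.

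Milk transcripts made up most of each library. The 8 milk protein genes of the marker list summed to between 679010 and 789732 TPM (a length-corrected share of all transcripts in the library) per library, and the 7 luminal epithelial markers to between 425 and 800 TPM. Fat cell markers were present in every library, and their summed TPM over 9 genes was 1347 to 2347 in knockout and 692 to 1200 in wild-type glands. These sums did not overlap, but they rest mostly on Fabp4 and Cfd, with means of 628 and 537 TPM. On CPM scaled with TMM each of the 9 genes overlapped between genotypes and 0 passed (smallest edgeR adjusted p = 0.218, for Cfd). Of the 9, 8 had a positive log2 fold change, the median was 0.35 and 5 were higher at an unadjusted p under 0.05 (6.31% of all genes were). These were Cfd at 0.78, Cidec at 0.46, Adipoq at 0.40, Fabp4 at 0.35 and Retn at 0.35, while Lep was at -0.81. The 7 B cell markers summed to between 0.723 and 12.5 TPM in knockout and between 2.02 and 50.8 TPM in wild-type glands, with the highest values in Wild-Type 5, Wild-Type 2, Knockout 1 and Wild-Type 4. Skeletal muscle markers had the widest relative range of the 10 cell type lists, from 2.58 TPM in Wild-Type 3 to 797 TPM in Knockout 1, with at most 120 TPM in any other library. In such bulk RNA, fewer cells of a type and less RNA per cell cannot be told apart. The targeted gene Tsc1 stood between 8.31 and 11.9 CPM (reads scaled to a common library size with TMM, not corrected for length) in knockout and between 9.55 and 12.2 CPM in wild-type libraries (log2 fold change -0.09, edgeR adjusted p = 0.772). Reads from exons outside the recombined part and from cells without Cre count here, so this does not check the labels.

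The members differed widely in level, and on the TPM of each member's main transcript the order was nearly the same in every gland. The main transcript was used, because very short listed sequences turn few reads into a high TPM. For Bid the sum over all listed transcripts was 7.99 TPM and the main transcript 2.27 TPM. Bax stood first in all 11 libraries, at 41.6 TPM ± 11.9 (SD, n = 11), and Mcl1 second in all 11, at 22.3 TPM ± 4.96 (SD, n = 11). Bad at 11.4 TPM ± 1.97 (SD, n = 11) and Bak1 at 9.89 TPM ± 2.06 (SD, n = 11) followed, and these neighbours were not separated, since Bad was above Bak1 in 8 of 11 libraries. Bcl2l1 came next at 5.96 TPM ± 1.48 (SD, n = 11), below Bak1 in all 11. On gene TPM, summed over all listed transcripts, Bcl2l1 was at 9.66 TPM and above Bak1 in 4 of 11 libraries, so their order depends on the transcripts counted.

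The lower ranks belonged mostly to BH3-only genes. Bmf at 4.75 TPM ± 0.954 (SD, n = 11) was below Bcl2l1 in 10 of 11 libraries and was not separated from Bbc3 at 4.18 TPM ± 1.61 (SD, n = 11), which it exceeded in 7 of 11. Bid stood at 2.27 TPM ± 0.797 (SD, n = 11) and Bcl2l11 at 1.03 TPM ± 0.539 (SD, n = 11), with Bid higher in 10 of 11 libraries. On gene TPM Bcl2l11 was at 3.49 TPM, and Bax, Mcl1 and Bcl2 kept ranks 1, 2 and 10 in all 11 libraries. The middle ranks moved more on that scale, from 3 to 9 for Bid, 3 to 8 for Bcl2l1 and Bbc3 and 4 to 8 for Bmf. Bcl2, the gene that gave the family its name, was last in all 11 at 0.148 TPM ± 0.135 (SD, n = 11). Among the 3 pro-survival genes, Mcl1 was therefore the most abundant in each library and Bcl2l1 the second.

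**Figure D1:**
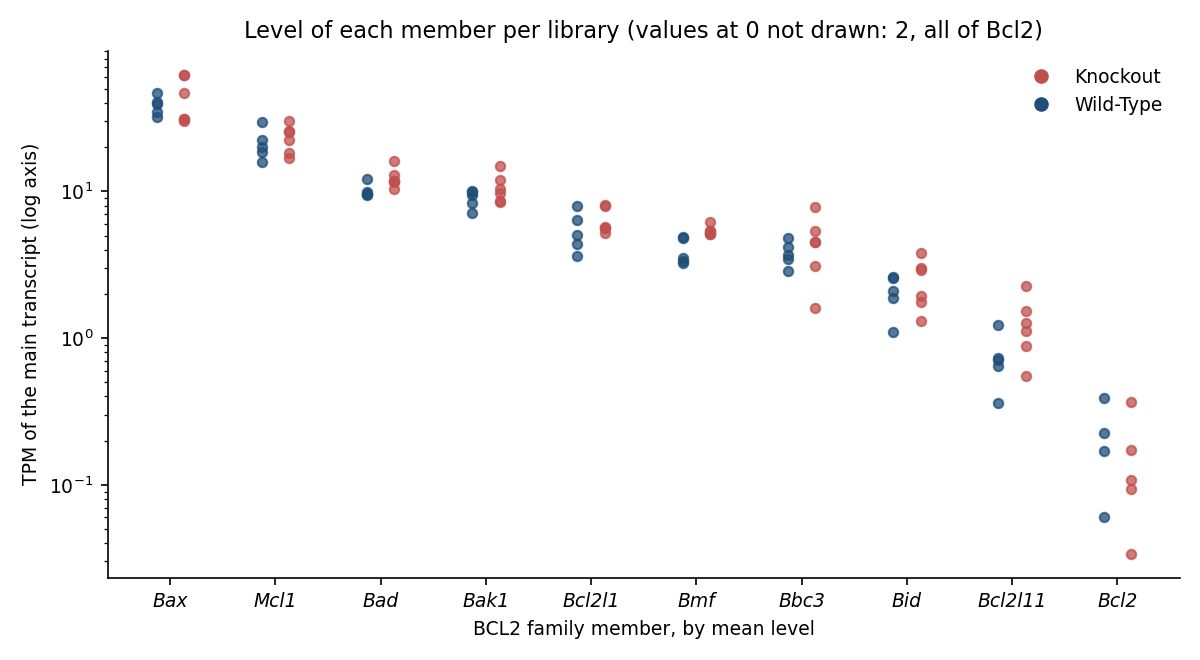
TPM of the main transcript (log axis) of each BCL2 family member, ordered by mean level, with 1 point per library (knockout red, wild-type blue); 2 values of Bcl2 at 0 are not drawn. Bax and Mcl1 occupy the upper 2 ranks in all 11 libraries and Bcl2 the lowest.

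The comparison of genotypes asked whether loss of Tsc1 in fat cells was accompanied by a shift of this family in the whole gland. With edgeR's quasi-likelihood test, 0 of the 9 members that had enough reads to be tested passed an adjusted p-value of 0.05, where 0.055% of all 12716 genes did (0.0472% higher and 0.00786% lower in knockout). Bmf alone had an unadjusted p-value under 0.05, 1 of 9 members against 12.4% of all genes. DESeq2 called 0 of 10 members, with Bcl2 included, and 1.09% of the 13453 genes it tested, and limma-voom called 0 of 9 members and 0.0472% of genes. Of the 9 members, 3 had positive and 6 negative log2 fold changes, against 48.3% positive over all genes. Their median was -0.01 and so was that of all genes tested. Values ran from -0.10 for Mcl1 to 0.41 for Bmf, and in no member did the knockout libraries all lie on one side of the wild-type libraries, as they did in 1.32% of all genes (0.786% higher and 0.535% lower in knockout). The labels name the libraries as separate samples without saying that each is a separate animal, so p-values measure the spread between these samples.

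Among the pro-survival genes, Mcl1 (ENSMUSG00000038612, chromosome 3, 95658788 to 95663176) was by far the most abundant. It encodes a short-lived protein that cells must keep replacing to survive. In wild-type 1 to 5 it stood at 48.4, 32.0, 41.4, 48.9 and 37.7 CPM. Knockout libraries ranged from 30.1 through a median of 38.8 to 47.4 CPM. The groups overlapped almost completely, and the lowest value was in Knockout 5 and the highest in Wild-Type 4. Its log2 fold change was -0.10 ± 0.14 (SE, 95% interval -0.39 to 0.20; edgeR adjusted p = 0.805).

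Bcl2l1 (ENSMUSG00000007659, chromosome 2, 152780668 to 152831728) makes BCL-XL, which guards the outer mitochondrial membrane. The wild-type libraries had 9.42, 5.89, 5.50, 8.81 and 6.67 CPM in order from 1 to 5. Knockout libraries ranged from 6.40 through a median of 6.80 to 8.15 CPM. All knockout values lay inside the wild-type range, and 2 wild-type libraries were below and 2 above every knockout library. Between genotypes the log2 fold change was -0.05 ± 0.14 (SE, 95% interval -0.36 to 0.26; edgeR adjusted p = 0.911). With each gene's average transcript length as an offset it was -0.28 (edgeR adjusted p = 0.596).

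Bcl2 (ENSMUSG00000057329, chromosome 1, 106538178 to 106714274), which lymphocytes use for survival, was barely present. Reads per library numbered 9, 7, 5, 6 and 23 in wild-type 1 to 5 and between 3 and 11 in knockout, too few for the filter of the edgeR test. Wild-Type 5 had 0.807 CPM, against 0.157 to 0.315 CPM in the other wild-type libraries and 0.110 to 0.375 CPM in knockout libraries. The groups overlapped. With no filter on low counts edgeR gave a log2 fold change of -1.01 (adjusted p = 0.484) and DESeq2 gave -1.02 (adjusted p = 0.456). Wild-Type 5 also had the highest sum of the B cell marker list, 50.8 TPM. Wild-Type 2, where that list summed to 34.4 TPM, had 0.292 CPM of Bcl2, and Knockout 2, where it summed to 2.06 TPM, had 0.375 CPM. Between genotypes all 5 tested B cell markers had negative log2 fold changes (median -2.92), as had all 6 tested T cell markers (median -1.39). Of all genes 48.3% were positive, and 0 of these markers passed in edgeR. The part of lymphocytes in the Bcl2 values was not tested.

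The effector Bax (ENSMUSG00000003873, chromosome 7, 45461697 to 45466898), which moves from the cytosol to mitochondria and forms pores there, varied more among knockout than among wild-type glands. Wild-type libraries 1 to 5 had 36.4, 40.3, 36.0, 37.4 and 36.4 CPM. Knockout libraries 1 to 6 had 42.1, 49.1, 29.0, 28.9, 27.8 and 40.5 CPM. Every wild-type value fell in the gap between Knockout 3, 4 and 5 below and Knockout 1, 2 and 6 above. The SD was 8.88 CPM (n = 6) in knockout and 1.77 CPM (n = 5) in wild-type libraries, a difference in spread that was seen in the values and was not tested. Summed in TPM, several marker lists split the knockout libraries in the same way. These sums were not rescaled for the share taken by milk proteins, while the Bax values above are CPM scaled with TMM. Whether the lists split on CPM was not examined. Fibroblast markers summed to between 60.1 and 99.2 TPM in Knockout 1, 2 and 6 and to between 40.1 and 55.8 TPM in Knockout 3, 4 and 5. Myoepithelial markers (160 to 184 against 105 to 134 TPM), macrophage markers (87.7 to 158 against 56.7 to 71.3 TPM), luminal markers (694 to 800 against 503 to 680 TPM) and skeletal muscle markers (20.9 to 797 against 5.51 to 12.1 TPM) were likewise higher in Knockout 1, 2 and 6. Milk proteins were lower there, at 679010 to 725558 against 751164 to 754839 TPM. The fat cell, endothelial, B cell and T cell lists did not split in this way. Genes acting after the mitochondrion has opened, which mark no cell type, did (216 to 275 against 192 to 205 TPM). The part of any of these in the Bax values was not tested. The means were close, with a log2 fold change of -0.04 ± 0.14 (SE, 95% interval -0.35 to 0.27; edgeR adjusted p = 0.935).

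Bak1 (ENSMUSG00000057789, chromosome 17, 27019810 to 27029009), the effector that resides in the mitochondrial membrane, was among the steadiest members. In wild-type 1 to 5 it stood at 11.3, 10.2, 8.58, 8.69 and 8.39 CPM. Knockout libraries ranged from 8.26 through a median of 9.24 to 10.7 CPM, within almost the same limits. The log2 fold change was -0.01 ± 0.10 (SE, 95% interval -0.23 to 0.21; edgeR adjusted p = 0.981). Its coefficient of variation over the 11 libraries was 10.7%, against 17.4% for Bax.

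**Figure D2:**
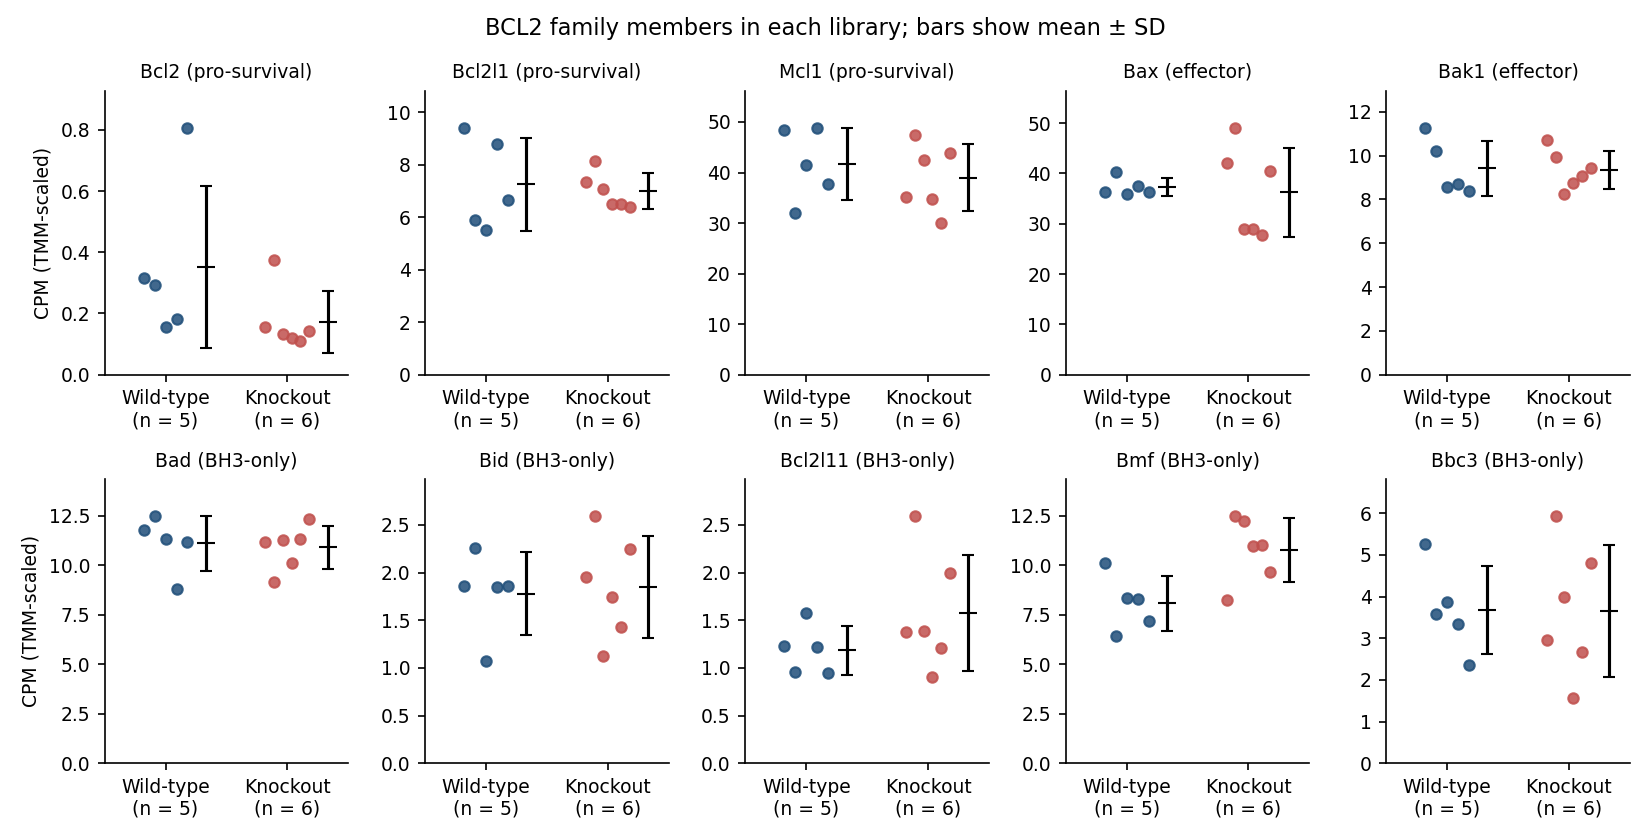
CPM after TMM scaling of the 10 members in each library (points) with the mean and SD of each genotype (black), every axis starting at 0. The genotypes overlap in every panel, and the knockout values of Bax fall above and below the narrow wild-type range of 36.0 to 40.3 CPM.

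The BH3-only gene Bmf (ENSMUSG00000040093, chromosome 2, 118528757 to 118549687) stood nearest to a difference. Its protein is held on the actin-bound motor complex of healthy cells and is freed when cells detach. The wild-type libraries had 10.1, 6.43, 8.36, 8.29 and 7.20 CPM in order from 1 to 5. Knockout libraries 1 to 6 had 8.24, 12.5, 12.3, 10.97, 11.01 and 9.67 CPM. Of the 6 knockout libraries 4 were above every wild-type library, while Wild-Type 1, 3 and 4 exceeded Knockout 1 and Wild-Type 1 also exceeded Knockout 6. The means were 10.8 CPM ± 1.60 (SD, n = 6) for knockout against 8.08 CPM ± 1.39 (SD, n = 5) for wild-type. Its log2 fold change of 0.41 ± 0.13 (SE, 95% interval 0.12 to 0.70) did not pass over all genes (edgeR adjusted p = 0.286). Its unadjusted p-value was 0.00893. Leaving out single libraries gave log2 fold changes between 0.34 and 0.51, and the adjusted p-value stayed above the threshold each time, between 0.209 and 0.552. Of the 9 fat cell markers described above, 8 had positive log2 fold changes, with a median of 0.35. So had 6 of 6 fibroblast (median 0.35), 6 of 6 myoepithelial (0.22) and 5 of 7 luminal markers (0.31). The milk protein, B cell and T cell lists had 0 positive, and macrophages 1 of 7. The part of cell types in the Bmf values was not tested.

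Bcl2l11 (ENSMUSG00000027381, chromosome 2, 128126038 to 128162547) makes BIM, which binds all pro-survival members. Its reads were few, between 23 and 76 per library. Wild-type libraries 1 to 5 had 1.23, 0.961, 1.57, 1.21 and 0.948 CPM. Knockout libraries ranged from 0.902 through a median of 1.38 to 2.59 CPM, with Knockout 2 and Knockout 6 above every wild-type library. Between genotypes the log2 fold change of 0.41 ± 0.26 (SE, 95% interval -0.16 to 0.98) was close to that of Bmf with a wider interval (edgeR adjusted p = 0.549). It depended on Knockout 2, the highest library, without which it was 0.22 (edgeR adjusted p = 0.762), and with the replicate number as a block it was 0.26.

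Bbc3 (ENSMUSG00000002083, chromosome 7, 16308393 to 16318205) encodes PUMA, best known as a target of p53. Its highest library was 3.80-fold above its lowest, the widest distance of the members after Bcl2. In wild-type 1 to 5 it stood at 5.25, 3.59, 3.86, 3.34 and 2.35 CPM, and knockout libraries ranged from 1.56 through a median of 3.48 to 5.93 CPM. Knockout libraries held both the highest and the lowest value. The log2 fold change was -0.01 ± 0.30 (SE, 95% interval -0.67 to 0.65; edgeR adjusted p = 0.993), the widest interval of the 9 tested members.

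Bad (ENSMUSG00000024959, chromosome 19, 6941861 to 6951899), whose protein is switched off by growth factor signals through phosphorylation, was as steady as Bak1. The wild-type libraries had 11.8, 12.5, 11.3, 8.81 and 11.2 CPM in order from 1 to 5, and knockout libraries ranged from 9.17 through a median of 11.2 to 12.3 CPM. Its log2 fold change was -0.03 ± 0.10 (SE, 95% interval -0.25 to 0.20; edgeR adjusted p = 0.942). Bid (ENSMUSG00000004446, chromosome 6, 120891930 to 120916853), which links death receptors to mitochondria once caspase 8 has cut it, had 34 to 88 reads per library. Wild-type libraries 1 to 5 had 1.86, 2.26, 1.07, 1.85 and 1.86 CPM, and knockout libraries ranged from 1.12 through a median of 1.85 to 2.59 CPM. Between genotypes the log2 fold change of Bid was 0.06 ± 0.23 (SE, 95% interval -0.45 to 0.57; edgeR adjusted p = 0.939). The transcript length offset moved it to 0.64 (edgeR adjusted p = 0.718), and 1 listed Bid transcript of 157 bases enters that average length.

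**Figure D3:**
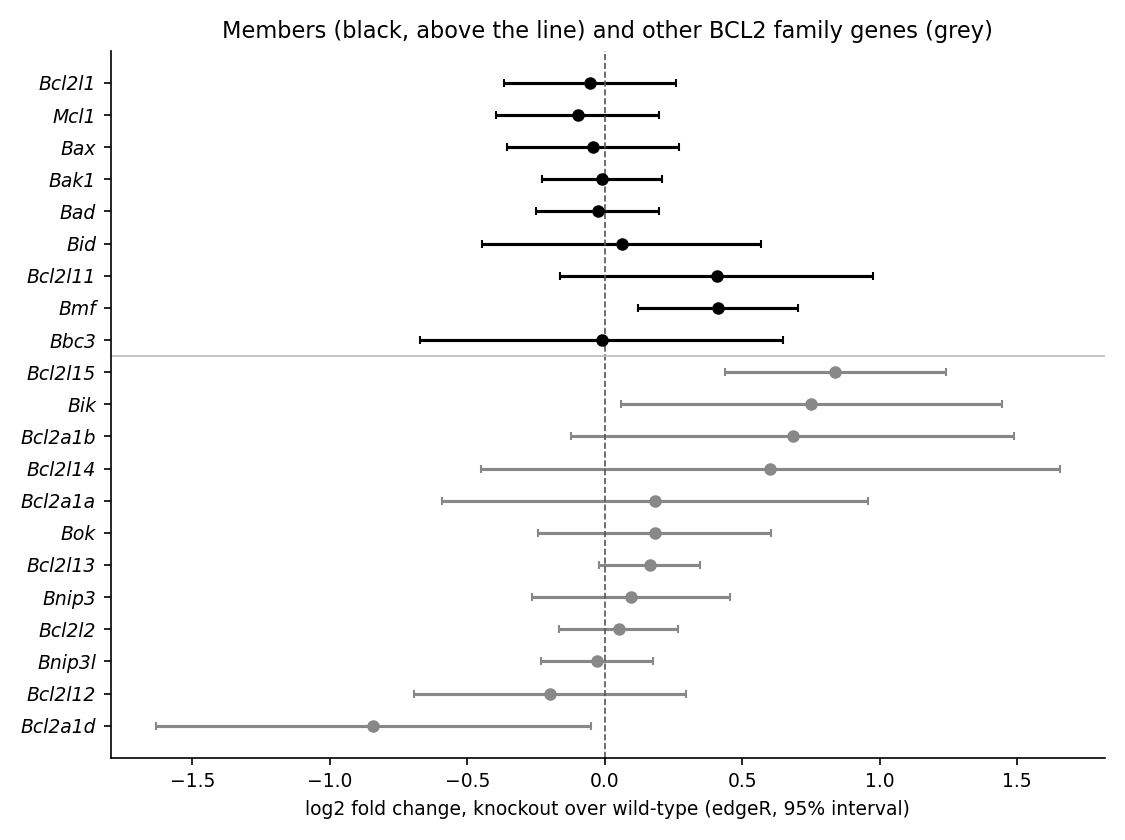
Log2 fold change, knockout over wild-type, with 95% intervals from edgeR, for the 9 tested members (black) and 12 other tested genes of the BCL2 family (grey). Among the members only the interval of Bmf, 0.12 to 0.70, lies wholly on one side of 0. In edgeR no gene shown passes after adjustment over all genes, while DESeq2 called Bcl2l15 (adjusted p = 0.00299).

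Some members were read almost entirely as 1 coding sequence, and others were more divided. Mcl1-201 took 99.9% of the Mcl1 reads in knockout and 99.8% in wild-type libraries, Bak1-202 took 99.3% and 99.1%, and Bcl2l1-201, the BCL-XL form, 95.8% and 92.3%. Shares were lower for Bbc3-201 (86.5% and 88.5%), Bcl2-201 (71.1% and 57.7%) and Bcl2l11-205 (60.1% and 54.9%), and for Bmf as given below. Transcripts with identical coding sequences were listed under a single name, so that Bid-204 also stood for Bid-201 and Bcl2l1-201 for Bcl2l1-202. BIM is made in forms of different length. The extra-long form Bcl2l11-205 (591 listed bases) averaged 26.3 reads per library, the long form Bcl2l11-203 (423 bases) 10.2 and the short form Bcl2l11-204 (333 bases) 1.09. A further listed sequence, Bcl2l11-202 (276 bases), averaged 6.76 reads and does not hold the core of the BH3 sequence printed above.

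The share of the main transcript was compared between genotypes for all 10 members with exact permutation tests, two-sided, and 0 passed after adjustment over the 10. The smallest adjusted p-value was 0.0541, reached by Bax and by Bcl2l1. Bax-201 held 90.8% ± 0.939 (SD, n = 6) of the reads for knockout against 92.7% ± 0.811 (SD, n = 5) in wild-type libraries, for which the exact permutation test gave p = 0.00866. Bcl2l1-201 held 95.8% ± 1.18 (SD, n = 6) and 92.3% ± 1.67 (SD, n = 5; exact permutation test, p = 0.0108). The remaining Bcl2l1 reads were mostly in Bcl2l1-208, a listed sequence of 234 bases that does not hold the core of the BH3 sequence printed above. Without Wild-Type 2, the wild-type library with the highest share (95.1%), the difference for Bcl2l1 passed, at 4.22 percentage points (exact permutation test, adjusted p = 0.0476). This was the only 1 of 11 such tests without a single library that passed, and the adjusted p-value reached 0.143. As shares of TPM in place of reads, the difference was -2.11 points for Bax (exact permutation test, adjusted p = 0.552), 11.4 points for Bcl2l1 (adjusted p = 0.141) and -12.9 points for Bmf (adjusted p = 0.141). The Bid share, which differed by -2.23 points in reads, differed by -32.8 points in TPM (exact permutation test, adjusted p = 0.548).

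Bmf reads were divided between Bmf-201 (816 listed bases) and the shorter Bmf-202 (573) and Bmf-203 (558). Bmf-201 and Bmf-202 hold the core of the BH3 sequence printed above. GENCODE M21 has another version of Bmf-203, of 374 bases, so whether the listed sequence holds the core was not examined. The quantifier put the reads of the shorter pair on either Bmf-202 or Bmf-203 in every library but Knockout 3, which had both, so the pair is given together. Bmf-201 held 71.1% ± 5.42 (SD, n = 6) of the reads for knockout against 81% ± 6.76 (SD, n = 5) in wild-type libraries, for which the exact permutation test gave p = 0.0260, adjusted p = 0.0866. In CPM, Bmf-201 averaged 7.62 ± 0.927 (SD, n = 6) for knockout against 6.54 ± 1.31 (SD, n = 5) for wild-type, with overlapping groups. The 2 shorter forms together were at 1.33, 0.701, 2.27, 1.77 and 1.61 CPM in wild-type 1 to 5 and at 2.34, 4.43, 4.29, 2.45, 3.05 and 2.35 CPM in knockout 1 to 6. The lowest knockout value was just above the highest wild-type value. This split was chosen after the values were seen and was not tested, and it rests on how reads from shared exons were assigned.

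**Figure D4:**
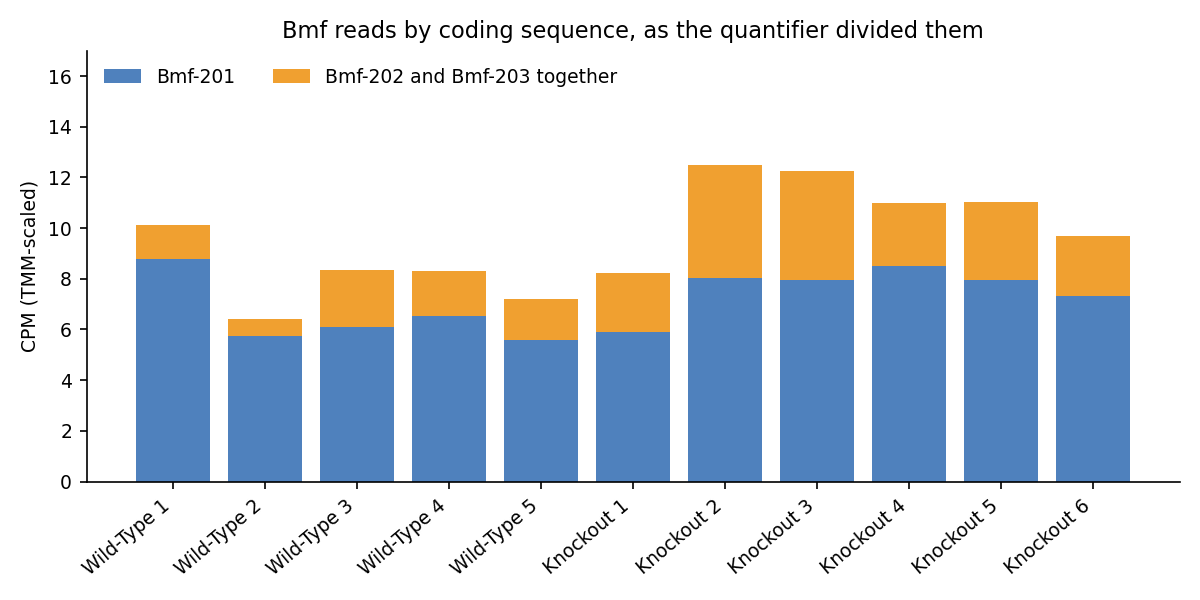
Bmf reads per library in CPM after TMM scaling, stacked by coding sequence as the quantifier divided them. The upper part, Bmf-202 and Bmf-203 together, spans 0.701 to 2.27 CPM in wild-type and 2.34 to 4.43 CPM in knockout libraries.

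The ratio of pro-survival to effector transcripts had overlapping ranges in the 2 genotypes. Main transcripts of Bcl2, Bcl2l1 and Mcl1 summed to 29.7 TPM ± 6.17 (SD, n = 6) for knockout against 26.9 TPM ± 6.89 (SD, n = 5) for wild-type, and those of Bax and Bak1 to 54.7 TPM ± 17.7 (SD, n = 6) and 47.7 TPM ± 6.44 (SD, n = 5). The ratio of the sums was 0.563 ± 0.0917 (SD, n = 6) for knockout against 0.562 ± 0.104 (SD, n = 5) for wild-type. It ranged from 0.443 to 0.715 and from 0.406 to 0.662. With sums over all listed transcripts of each gene the ratio was 0.516 ± 0.0817 (SD, n = 6) and 0.552 ± 0.106 (SD, n = 5). That version was the planned one, and the version with main transcripts was not planned. The direction of both sums depended on the scale. On CPM per kilobase of effective length, the pro-survival sum was 87.2 ± 13.1 (SD, n = 6) for knockout against 97.8 ± 19.4 (SD, n = 5) for wild-type, and the effector sum 172 ± 37.8 and 178 ± 12.3. In the authors' normalized values the knockout means were the lower ones as well, at 1418 against 1555 for pro-survival and 1414 against 1454 for effector genes. BH3-only main transcripts summed to 26.1 TPM ± 4.65 (SD, n = 6) for knockout against 20.7 TPM ± 1.67 (SD, n = 5) for wild-type. TPM was not rescaled for the share taken by milk proteins, whose list had medians of 738361 TPM in knockout and 770314 TPM in wild-type glands, with overlapping ranges. These sums are descriptions over the members and were not tested.

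Whether members varied together over the 11 libraries was examined for the 36 pairs of tested members on log2 CPM. By Pearson correlation 0 of 36 pairs passed after adjustment, and 4 had an unadjusted permutation p under 0.05. Bcl2l11 and Bbc3 gave the largest Pearson coefficient, at r = 0.753 (permutation p = 0.00721, adjusted p = 0.246). Their rho was 0.818 (permutation p = 0.00299, adjusted p = 0.0538), below that of Bax and Bid. Without Knockout 2 and Knockout 6, the libraries farthest from the median of Bcl2l11, r was 0.606. After the genotype means were removed r was 0.860 (permutation test, adjusted p = 0.0299). Bax and Bid gave r = 0.71 (permutation p = 0.0136, adjusted p = 0.246) and rho = 0.855 (permutation p = 0.00155, adjusted p = 0.0538), and r = 0.598 without Knockout 2 and Knockout 5. The rho of Bax and Bid passed after the genotype means were removed (permutation test, adjusted p = 0.0279) and with relative log expression factors (rho = 0.882, permutation test, adjusted p = 0.0245), while its r did not. The other 2 pairs were Mcl1 with Bbc3 (r = 0.652, rho = 0.655, adjusted permutation p = 0.338 and 0.347) and Bcl2l1 with Mcl1 (r = 0.634, rho = 0.627, adjusted permutation p = 0.340 and 0.347). Without the 2 libraries farthest from the median of the first gene, r was 0.798 for Mcl1 with Bbc3 and 0.350 for Bcl2l1 with Mcl1, so that the latter rested on Wild-Type 1 and Wild-Type 4. All pairs share the same libraries and scaling.

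Other genes of the family and its surroundings were read from 4 lists of the pathway. Their levels are given as gene TPM, which very short listed sequences can raise. Of 15 further family genes 12 had enough reads, and 0 passed after adjustment in edgeR. Their median log2 fold change was 0.17, with 9 positive and 3 negative, against -0.01 over all genes. Unadjusted p-values were under 0.05 for 2 higher genes (6.31% of all genes were higher at this level) and 1 lower gene (6.08%). Bcl2l15, a lesser known relative, was the most abundant gene of this list at 92.9 TPM, above the 51.4 TPM of Bax on the same scale of gene TPM. It had 26.9 to 54.8 CPM in wild-type and 55.5 to 74.5 CPM in knockout libraries. The groups did not overlap, as was the case with knockout higher in 0.786% of all genes. Its log2 fold change was 0.84 ± 0.19 SE (adjusted p = 0.196 by edgeR). It was called by DESeq2 (adjusted p = 0.00299), as were 1.09% of the genes DESeq2 tested. Without Wild-Type 5, the highest wild-type library, edgeR called it among 13 of 12866 genes (adjusted p = 0.0172, log2 fold change 1.05). This was the only 1 of 11 edgeR fits without a single library that passed, with adjusted p-values up to 0.409. With the replicate number as a block the edgeR adjusted p was 0.515. Luminal markers summed to 503 to 800 TPM in knockout and 425 to 712 TPM in wild-type libraries, and 5 of the 9 fat cell markers were higher at an unadjusted p under 0.05. Their part in the Bcl2l15 values was not tested.

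Bik, a BH3-only gene, stood at 1.33 CPM ± 0.528 (SD, n = 6) for knockout against 0.786 CPM ± 0.262 (SD, n = 5) for wild-type, with overlapping ranges (log2 fold change 0.75 with an SE of 0.32, edgeR adjusted p = 0.371). The lower gene was Bcl2a1d at -0.84 ± 0.37 (log2, SE; edgeR adjusted p = 0.379), named after its values were seen. It belongs to a set of near-identical copies, so that reads may be shared among them, and the copies Bcl2a1b and Bcl2a1a had log2 fold changes of 0.68 and 0.18 (edgeR adjusted p = 0.480 and 0.864). Bnip3, a mitochondrial relative linked to mitophagy, was second in level at 23.1 TPM, with a log2 fold change of 0.10 ± 0.17 SE (adjusted p = 0.849 by edgeR). The BH3-only genes Pmaip1, with 1 to 8 reads per library, and Hrk, with 0 in each, had too few reads to be tested.

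Of 17 genes that act after the mitochondrion has opened, 16 were tested, Cycs is not analysed here, and 0 passed in edgeR. Their median log2 fold change was -0.09, with 6 positive and 10 negative. The smallest p-value belonged to Htra2, a protease. It had 16.3 to 19.9 CPM in wild-type and 13.9 to 16.6 CPM in knockout libraries. This gave a log2 value of -0.28 ± 0.07 SE (adjusted p = 0.230 by edgeR). DESeq2 called it just under the threshold (adjusted p = 0.0499), as it called 1.09% of the genes it tested. Endog, a nuclease, was at 5.68 CPM ± 0.695 (SD, n = 6) for knockout against 7.46 CPM ± 1.25 (SD, n = 5) for wild-type (log2 fold change -0.39 with an SE of 0.13, edgeR adjusted p = 0.282). Xiap, a caspase inhibitor named after its values were seen, was the only gene of this list with a positive value and an unadjusted p under 0.05 (log2 fold change 0.64 with an SE of 0.22, edgeR adjusted p = 0.313). The membrane channel genes Vdac2 and Vdac1 were the most abundant, at 64.6 and 34.4 TPM, with log2 fold changes of 0.02 and 0.00 (edgeR adjusted p = 0.920 and 0.999).

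The death receptor pathway, which reaches mitochondria through BID, was read from 13 genes. Of these 11 were tested, 0 passed, and 0 had an unadjusted p under 0.05 in edgeR, with log2 fold changes between -0.28 and 0.17. The receptor gene Tnfrsf1a was the most abundant at 45.1 TPM (log2 fold change 0.17 with an SE of 0.12, edgeR adjusted p = 0.573), followed by Fas at 9.95 TPM (-0.14 ± 0.19; edgeR adjusted p = 0.798). Casp8, the caspase that cuts BID, had means of 16.0 CPM (knockout) and 17.7 CPM (wild-type) (log2 fold change -0.15 with an SE of 0.11, edgeR adjusted p = 0.599).

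Of 30 genes whose products regulate or bind BCL2 proteins, 28 were tested and 0 passed in edgeR, with 14 positive, 14 negative and a median log2 fold change of 0.00. Dynll2, the light chain that tethers BMF, was the most abundant at 199 TPM and had a log2 fold change of -0.01 ± 0.09 SE (adjusted p = 0.972 by edgeR). Pim1, a kinase that inactivates BAD, stood at 87.3 TPM with 0.17 ± 0.26 (log2, SE; edgeR adjusted p = 0.830). The smallest p-values belonged to Trp63, a p53 relative of basal epithelium, at 0.59 ± 0.18 (log2, SE; edgeR adjusted p = 0.270), and to Usp9x, which spares MCL1 from breakdown, at 0.28 ± 0.10 (edgeR adjusted p = 0.338). With an offset for transcript length the Usp9x value was 0.09 (edgeR adjusted p = 0.719). Stat5a at 0.43 ± 0.19 and Pim3 at -0.42 ± 0.19 (log2, SE; edgeR adjusted p = 0.379 and 0.397), named after their values were seen, were the other 2 with an unadjusted p under 0.05.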

How the data were processed

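Per the submitters' processing notes, Salmon 1.3.0, DESeq2 1.28.1 and GRCm38.p6 were used; the index and options are not given in the sources used here. Per the file headers, the deposited tables give each transcript's length, effective length, TPM and estimated count. The authors' table of gene values is treated as a signal normalized with DESeq2 and served only as an alternative. Of 58204 transcripts, 57452 were matched to GENCODE M21 genes; the 752 others held at most 0.265% of the reads of a library. Where the transcript version matched, 94.3% of the lengths fell within 3 bases of the coding part, so most entries carry no UTR. The estimated counts were added up by gene, then rounded. Low genes were removed with filterByExpr, leaving 12716. The test was edgeR 4.0.16 (robust quasi-likelihood F test, TMM, genotype as the only term, Benjamini-Hochberg over all genes, threshold 0.05), with SE taken as the log2 fold change over the square root of F and 95% intervals from the t distribution with the degrees of freedom of the fit. log2 CPM used a prior count of 2. No 2 libraries of the same genotype agreed within counting noise (chi-square per degree of freedom 21.9 to 93.6 over 25 combinations). DESeq2 1.42.0 and limma 3.58.1 were alternatives. Exact permutation tests ran over 462 splits, whose smallest possible p is 0.00216, and correlation tests over 100000 permutations. The rule for named genes beyond the members took, in each list, the 2 with the smallest p-values, the 2 with the highest mean TPM and any called; others are marked. The members and lists were chosen with earlier results of these data known.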

Additional observations from a re-analysis of the deposited data

Results flagged for a closer look

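The CPM and the main transcript share of each member in each genotype make 40 sets of values, and 4 held a library standing apart from the rest by Dixon's criterion. Chance alone flags about 1 in 20 sets, or 2 here. Bcl2 was at 0.375 CPM in Knockout 2, against 0.110 to 0.155 CPM in the other knockout libraries, on 11 reads. It was at 0.807 CPM in Wild-Type 5, on 23 reads, where the B cell markers were also highest at 50.8 TPM. Mcl1-201 held 99.4% of the Mcl1 reads in Knockout 4, a distance of less than 1 percentage point from the other libraries. Bax-201 held 94.1% of the Bax reads in Wild-Type 5, the highest share of any library.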

How the results depend on the processing

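Across all genes 7 passed in edgeR, and the count was 6 or 7 under relative log expression factors, without milk genes, with no filter, with the transcript length offset and by limma-voom. DESeq2 called 146, and the cause was not tested. Without single libraries the count ran from 0 (without Knockout 3 or Knockout 6) to 28 (without Knockout 2). The replicate numbers pair the samples only by name: same-numbered libraries had correlations of deviations between -0.223 and 0.187, and 1 of 5 knockout libraries was closest to its own number. With the replicate block edgeR called 0 genes, against 7 without it. No member passed under any of these settings.

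The log2 fold changes that turned sign lay between -0.14 and 0.06 in the main result. With the replicate block the log2 fold change of Bid was -0.0215 and that of Vdac1 -0.0143. With the transcript length offset it was 0.0336 for Bbc3, -0.00494 for Vdac2, 0.0493 for Fas and 0.0916 for Dynll2. With no filter Vdac1 was at -0.000276, and by limma-voom Bak1 was at 0.00445. Leaving out single libraries gave -0.14 to 0.0584 for Bcl2l1, -0.14 to 0.0299 for Bax, -0.049 to 0.0639 for Bak1, -0.0952 to 0.0238 for Bad, -0.0777 to 0.17 for Bid and -0.20 to 0.15 for Bbc3. It gave -0.0452 to 0.0707 for Vdac1, -0.000731 to 0.0584 for Vdac2 and -0.0488 to 0.0575 for Dynll2. Main transcript shares differed by -1.03 to 27.6 percentage points for Bcl2, -3.35 to 0.837 for Bbc3 and 3.18 to 4.22 for Bcl2l1. The correlation of Bcl2l11 with Bbc3 was 0.860 after genotype means were removed. The cause of these shifts was not tested. Low counts limit Bcl2, Bcl2l11 and Bid most, with as few as 3, 23 and 34 reads in a library.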
